A study of Mus musculus with 16 samples.

Results

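The receptors that bind the Fc end of immunoglobulin G (IgG) were described across uninjured and injured flexor tendon of C57 and MRL mice. The members were the rows of the deposited count table with the symbols Fcgr1, Fcgr2b, Fcgr3, Fcgr4, Fcer1g and Fcgrt by their names alone, which are 6 of the 49568 gene symbols counted. RNA-seq covered 16 libraries of flexor tendon from young adult males, which fell into 4 groups of 4. The groups were uninjured C57BL/6J (C57), C57 at 7 days post injury (dpi), uninjured MRL/MpJ (MRL, an inbred strain studied for its accelerated tissue healing) and MRL at 7 dpi. The injury was a partial cut across the deep digital flexor tendon of the hind paw's middle digit, and the uninjured tendons were not cut. Each library came from a single tendon whose sheath and surrounding tissue were left on. The methods count the samples of a group as separate animals. No transgene or deletion is named for any group. The surgery came with ketamine and xylazine anesthesia and with buprenorphine, and whether the uninjured groups received these drugs is not stated in the sources used here.

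Fc gamma receptors let phagocytes and other leukocytes respond to antigen coated with IgG. The mouse activating receptors (Fcgr1, Fcgr3 and Fcgr4) carry no signalling motif of their own and depend on the common chain encoded by Fcer1g, whose tyrosine motif (ITAM) recruits the kinase Syk after Src-family kinases phosphorylate it. Fcgr2b encodes the only inhibitory receptor of the family, whose inhibitory motif (ITIM) recruits the lipid phosphatase SHIP (Inpp5d). Fcgrt encodes the heavy chain of the neonatal Fc receptor (FcRn), which pairs with beta-2 microglobulin (B2m), salvages IgG and albumin from degradation, and is made by endothelium and many other cells as well as by phagocytes.

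Fcgr2b, Fcgr4, Fcgr3 and Fcer1g lie on chromosome 1 (GRCm38, GENCODE M21). Their spans are chr1:170958617-170976547 on the minus strand for Fcgr2b, chr1:171018920-171029761 on the plus strand for Fcgr4, chr1:171051174-171064935 on the minus strand for Fcgr3 and chr1:171229572-171234365 on the minus strand for Fcer1g. Neighbours in this row were separated by 42372, 21412 and 164636 bases. Fcgr1 is at chr3:96282909-96293969 and Fcgrt at chr7:45092990-45103851, both on the minus strand. All 6 are annotated as protein coding. The sequence just before the start site is shown for the 3 activating receptors and, as the contrast, for their shared chain, on which they depend. The sequences are from RefSeq (GRCm38.p6), read 5′ to 3′ on the strand of the gene, without the bases that GENCODE annotates as exon. They are chr3:96293970-96294069 for Fcgr1, chr1:171059404-171059503 for Fcgr3, chr1:171018826-171018919 for Fcgr4 and chr1:171234366-171234449 for Fcer1g. For Fcgr3 the window lies before 1 of its 2 listed RefSeq starts, inside the span of the gene. Capitals mark TTCCTC, the reverse complement of GAGGAA, a purine-rich core of the kind bound by the myeloid factor PU.1 (Spi1).
Fcgr1: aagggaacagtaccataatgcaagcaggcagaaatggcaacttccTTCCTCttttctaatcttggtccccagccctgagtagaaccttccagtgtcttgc
Fcgr3: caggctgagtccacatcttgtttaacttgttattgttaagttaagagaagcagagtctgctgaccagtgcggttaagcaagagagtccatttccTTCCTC
Fcgr4: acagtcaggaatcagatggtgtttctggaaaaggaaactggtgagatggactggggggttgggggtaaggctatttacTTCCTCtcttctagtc
Fcer1g: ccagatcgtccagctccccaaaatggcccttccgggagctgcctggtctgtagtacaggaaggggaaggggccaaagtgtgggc
The letters GAGGAA were searched on both strands, and a match also counts as a match of the shorter GGAA. All 3 activating receptors held it in the 100 bases before the start, whereas Fcer1g, Fcgr2b and Fcgrt did not, and 9.82% of 32851 listed promoters held it in a window of that length. The GGAA core alone was in 66.8% of them. The motif was picked after the sequences were seen, so this is a description of letters and not of bound sites.

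Sequence sharing bears on which counts can be read apart. Of the distinct 100-base stretches in the annotated transcripts of Fcgr3, 44 of 1733 (2.54%) were also in Fcgr2b, whose own share was 44 of 5843 (0.75%). Fcgr1, Fcgr4, Fcer1g and Fcgrt shared none with another gene. A further 3.54% of the stretches of Fcgr2b were also in genes outside the family. The strand setting of the counting is not stated. The antisense gene Gm38204 covers 155 of 5790 exon bases of Fcgr2b, so counts of this pair cannot be fully told apart, and Gm45669 lies opposite Fcgrt without covering an exon base of it.

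Total counts per library ran from 12552424 to 23741648, with the MRL injured libraries deeper (median 23460742.5) than those of the other groups (medians of 14504137 to 15107675.5). Levels are given as CPM, counts scaled to a common library size with TMM factors, and 3 counts, taken as the floor of detection, corresponded to 0.126 to 0.241 CPM. The library labelled C57 uninjured replicate 4 stood apart, with Spearman correlations of 0.799 to 0.834 with its own group. Its summed level of 12 epidermal genes was 78430 CPM, against at most 812.0 CPM in any other library (C57 uninjured replicate 3). MRL uninjured replicate 4 correlated less with its own group (0.932 to 0.941) than with its closest library of another group (0.964). The C57 injured library BI-181 held 71460 CPM of 12 skeletal muscle genes. BI-183 of the same group held 2010 CPM of them, and every remaining library at most 20.7 CPM. Where leaving one of them out changed the call of a member, both values are given. Tendon markers were present in every group, with summed levels of 8 genes between 16860 and 74570 CPM.

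Some of the receptor transcripts rose with injury in both strains. Of the 5 members tested in C57, Fcgr2b and Fcgr3 rose, where 0.908% of all genes tested rose by the same criteria (edgeR adjusted p under 0.05 and absolute log2 fold change over 1). Of the 6 members tested in MRL, Fcgr1, Fcgr3, Fcer1g and Fcgr2b rose, where 5.25% of all genes did. Fcgr2b, Fcgr3, Fcer1g and Fcgr1 had every injured library above every uninjured one in both strains, where 7.51% of all genes tested in C57 and 13.5% in MRL were separated in that direction. Fcgrt did not pass the test in either strain, and Fcgr4, tested in MRL alone, did not pass there. In bulk tissue, more receptor-bearing cells and more receptor RNA per cell cannot be told apart.

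**Figure D1:**
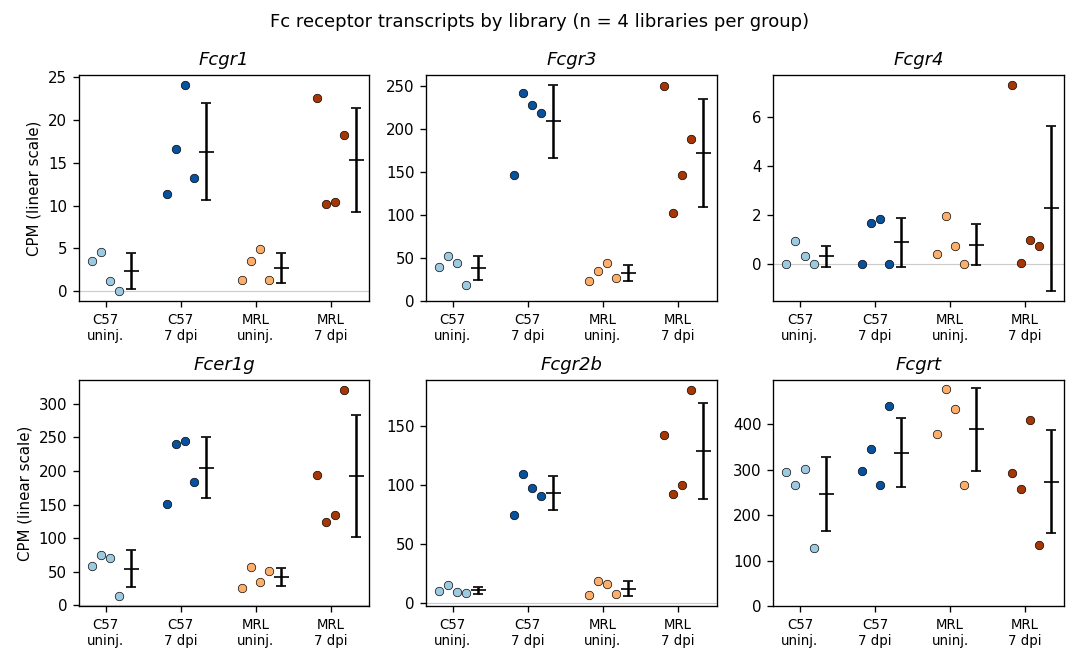
CPM of each Fc receptor gene (vertical axis, linear, scaled to each gene) in the 4 libraries of each group, with the group mean and SD beside the points. For Fcgr1, Fcgr3, Fcer1g and Fcgr2b all 7 dpi libraries sit above all uninjured libraries of their strain. Fcgr4 is near 0 except for 1 MRL library at 7.32 CPM, and the groups overlap for Fcgrt.

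Fcgr3, the low-affinity activating receptor of macrophages, neutrophils, natural killer cells and mast cells, had the highest level of the 4 Fc gamma receptors in every group. It measured 39.6, 52.4, 44.9 and 19.4 CPM in the uninjured C57 libraries and 146.8, 242.1, 228.6 and 218.6 CPM at 7 dpi. In MRL it measured 23.8, 34.8, 44.5 and 27.3 CPM before injury and 250.3, 102.3, 147.2 and 188.4 CPM after. The lowest injured library, BI-272 of MRL at 102.3 CPM, was well above the highest uninjured library of either strain, C57 replicate 2 at 52.4 CPM. Fcgr3 rose 5.18-fold in C57 (log2 2.37 ± 0.31, SE; edgeR adjusted p = 0.0152) and 5.31-fold in MRL (log2 2.41 ± 0.30, SE; edgeR adjusted p = 0.00172). The C57 call depended on the libraries fitted. Without C57 uninjured replicate 4 or without BI-181 Fcgr3 still rose, with log2 fold changes of 2.15 and 2.54. Leaving out any one of the other 6 C57 libraries gave edgeR adjusted p-values of 0.0520 to 0.0664.

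Fcgr1, the high-affinity IgG receptor of monocytes and macrophages, was counted at far lower levels. The uninjured C57 libraries held 3.56, 4.54, 1.24 and 0 CPM and the injured ones 11.4, 16.6, 24.1 and 13.2 CPM. In MRL the values were 1.33, 3.47, 4.90 and 1.29 CPM before injury and 22.5, 10.2, 10.5 and 18.2 CPM after. The groups were separated in both strains, and the single 0 was in C57 uninjured replicate 4, where 3 counts would have given 0.197 CPM. Fcgr1 rose 5.60-fold in MRL (log2 2.49 ± 0.52, SE; edgeR adjusted p = 0.0153). In C57 the log2 difference was 2.75 ± 1.01 (SE) and did not pass (edgeR adjusted p = 0.247). Without C57 uninjured replicate 4 it did, at a log2 fold change of 2.34 (edgeR adjusted p = 0.0264).

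Fcgr4, the activating receptor that prefers the IgG2 subclasses, stayed near the floor. Its counts in the uninjured libraries were 0, 14, 4 and 0 in C57 and 6, 27, 12 and 0 in MRL. At 7 dpi they were 0, 27, 28 and 0 in C57 and 174, 1, 22 and 13 in MRL. The value of 174 counts (7.32 CPM) belonged to BI-270, and no other library exceeded 1.95 CPM. In C57 the gene was removed by the filter on low counts. The 8 alternative C57 fits that kept it gave log2 differences of 1.03 to 1.89, none of which passed (edgeR or DESeq2 adjusted p of 0.717 to 0.857). In MRL the log2 difference of 1.57 ± 1.38 (SE; edgeR adjusted p = 0.498) turned to -0.41 without BI-270.

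Fcer1g, the signalling chain shared by the activating receptors, measured 58.9, 74.6, 70.1 and 13.95 CPM in uninjured C57 and 150.9, 240.4, 243.8 and 183.7 CPM at 7 dpi. In MRL it measured 25.8, 56.4, 35.3 and 50.4 CPM before and 193.9, 123.4, 133.8 and 320.6 CPM after injury. As for Fcgr3, the uninjured and injured values did not overlap, and the lowest uninjured value was that of C57 replicate 4. Fcer1g rose 4.63-fold in MRL (log2 2.21 ± 0.35, SE; edgeR adjusted p = 0.00458). In C57 the log2 difference of 1.87 ± 0.45 (SE) missed the threshold (edgeR adjusted p = 0.0954). It passed without C57 uninjured replicate 4, at a lower log2 fold change of 1.55 (edgeR adjusted p = 0.00473).

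Fcgr2b, the inhibitory receptor, had the largest fold change of the members tested in each strain. The uninjured C57 libraries measured 9.88, 14.6, 8.74 and 7.70 CPM and the injured ones 74.3, 109.1, 97.0 and 90.1 CPM. In MRL the values were 6.04, 18.7, 15.5 and 7.16 CPM before injury and 141.6, 92.2, 99.8 and 180.2 CPM after. Uninjured levels never exceeded 18.7 CPM and injured levels never fell below 74.3 CPM. The rise was 8.76-fold in C57 (log2 3.13 ± 0.25, SE; edgeR adjusted p = 0.00257), second by p-value among the 14424 genes tested, and 10.9-fold in MRL (log2 3.45 ± 0.40, SE; edgeR adjusted p = 0.00130). Without C57 uninjured replicate 4 the C57 value was 3.02 and without BI-181 it was 3.25 on the log2 scale. Each of the 8 fits that left out 1 C57 library, and each of the 8 that left out 1 MRL library, called it.

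Fcgrt, the FcRn heavy chain, did not follow the receptors. It measured 294.2, 266.2, 301.2 and 127.4 CPM in uninjured C57 and 297.1, 345.8, 267.0 and 439.9 CPM at 7 dpi. In MRL it measured 377.6, 478.0, 432.2 and 265.5 CPM before and 292.8, 257.1, 409.3 and 133.8 CPM after injury. The ranges overlapped in both strains, and the lowest values were in C57 uninjured replicate 4 and in BI-275. The log2 difference was 0.40 (95% interval -0.26 to 1.07) in C57 and -0.50 (-1.17 to 0.16) in MRL, with edgeR adjusted p-values of 0.555 and 0.306. Without C57 uninjured replicate 4 the C57 difference was 0.19, and without BI-181 it was 0.49. Without BI-275 the MRL difference was -0.27. Its light chain B2m had log2 differences of 0.54 ± 0.31 in C57 and 0.83 ± 0.35 in MRL (SE), neither of which passed (edgeR adjusted p = 0.444 and 0.147). In injured MRL, B2m measured 1947 CPM in BI-270 and 602.9 to 856.7 CPM in the other 3 libraries, against 506.8 to 650.2 CPM in uninjured MRL.

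Whether the strains responded differently was asked by the strain-by-injury interaction, fitted to the 16 libraries together. None of the 6 members passed, and 0% of the 15947 genes tested did (edgeR), although 1939 of them had an unadjusted p under 0.05 and DESeq2 called 198 genes. The interaction (MRL response minus C57 response, log2) was -0.02 for Fcgr3 (95% interval -0.95 to 0.91) and 0.26 for Fcgr2b (-0.73 to 1.26). It was 0.29 for Fcer1g (-0.97 to 1.55) and -0.32 for Fcgr1 (-2.70 to 2.06). These intervals do not show that the strains responded alike. Fcgrt had the value farthest from 0 among the members, -0.96 (-1.92 to 0.00; edgeR adjusted p = 0.414). For Fcgr4 the interval of -6.56 to 6.68 carries no information on direction.

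**Figure D2:**
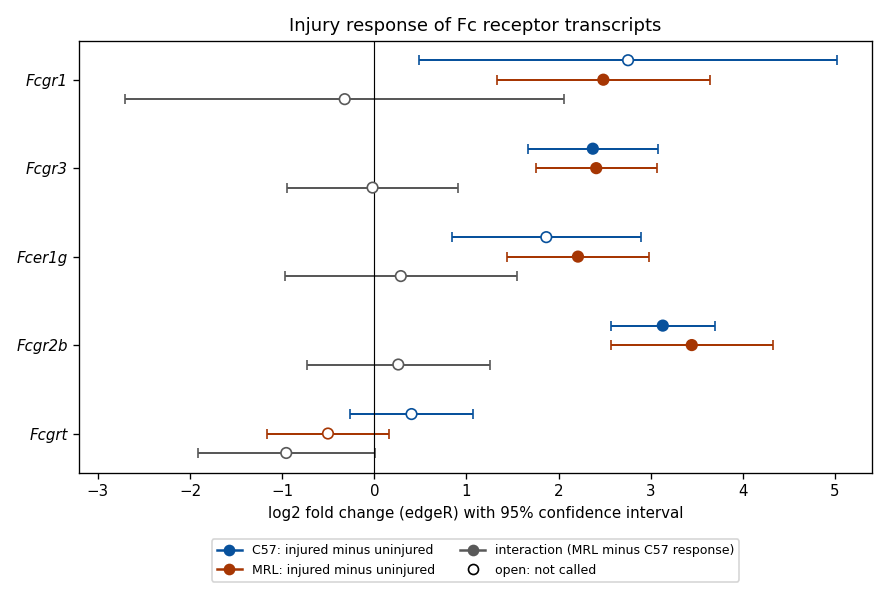
Log2 fold changes of injury in C57 and MRL, and their difference (the interaction), for the 5 members tested in both strains; bars are 95% confidence intervals and filled points passed the test. The C57 and MRL intervals overlap for every gene, and the interaction intervals include 0, with the upper end for Fcgrt at 0.00.

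Compared directly, none of the members tested passed between the strains. In uninjured tendon, 0% of 14055 genes tested were called by edgeR (1106 had an unadjusted p under 0.05, and DESeq2 called 104). Among the 5 members tested, Fcgrt was farthest from 0, at 0.64 higher in MRL on the log2 scale (95% interval -0.01 to 1.29; edgeR adjusted p = 0.631). Over the alternatives its edgeR or DESeq2 adjusted p ran from 0.0178, without both uninjured libraries numbered 4, to 0.9499, and its log2 difference stayed below the required 1. The other uninjured log2 differences (MRL minus C57) were -0.28 for Fcgr3 (-0.99 to 0.44), -0.38 for Fcer1g (-1.42 to 0.65), 0.23 for Fcgr1 (-2.34 to 2.80) and 0.20 for Fcgr2b (-0.76 to 1.16). Fcgr4 was removed there by the filter on low counts, and the alternative fits that kept it gave 0.89 to 1.71 without a call. At 7 dpi, 3.43% of 14626 genes differed between strains, and none of the 6 members was among them. The log2 differences (MRL minus C57) at 7 dpi were -0.30 for Fcgr3 (-0.91 to 0.31), -0.11 for Fcgr1 (-0.88 to 0.67), -0.11 for Fcer1g (-0.79 to 0.57) and -0.33 for Fcgrt (-1.03 to 0.38), the last of which was -0.046 without BI-275. Without BI-272 the value of Fcgr3 was -0.074. For Fcgr4 the value was 1.36 (-2.09 to 4.82). Fcgr2b was the member closest to the threshold, at 0.45 (-0.07 to 0.97; edgeR adjusted p = 0.301).

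On the scale of CPM per kilobase of annotated exon, which allows levels of different genes to be set side by side, the order in uninjured tendon of both strains was Fcgrt, Fcer1g, Fcgr3, Fcgr2b, Fcgr1 and Fcgr4. In uninjured C57 the means were 117.6 ± 38.7, 62.2 ± 31.7, 22.5 ± 8.14, 1.77 ± 0.53, 0.902 ± 0.805 and 0.242 ± 0.341 CPM per kilobase (SD, n = 4). In C57 the ranges of neighbours in that order overlapped except between Fcgr3 and Fcgr2b, whereas in uninjured MRL they overlapped only between Fcgr2b and Fcgr1 and between Fcgr1 and Fcgr4. At 7 dpi Fcer1g was first in both strains, at 234.2 ± 51.7 CPM per kilobase in C57 and 220.8 ± 103.6 in MRL (SD, n = 4), followed by Fcgrt at 160.5 ± 36.0 and 130.0 ± 54.0. The ranges of Fcer1g and Fcgrt overlapped, as did those of Fcgrt and Fcgr3, except in C57 when only coding transcripts set the length. Fcgr3 stood at 120.4 ± 24.5 and 99.1 ± 36.2 CPM per kilobase and Fcgr2b between 12.8 and 18.8 in C57 and between 15.9 and 31.1 in MRL, with no overlap between the pair in either strain. Among the 4 Fc gamma receptors, Fcgr3 made up 73.7% to 92.1% of the summed level per kilobase in every library.

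The balance of the inhibitory receptor against the activating one was read from the count of Fcgr2b as a percent of that of Fcgr3 within each library, a ratio that does not depend on library scaling. It compares libraries and not the absolute levels of the genes, which differ in length. In C57 it was 25.0%, 27.9%, 19.5% and 39.7% before injury and 50.6%, 45.1%, 42.4% and 41.2% after. In MRL it was 25.4%, 53.7%, 34.8% and 26.3% before injury and 56.6%, 90.2%, 67.8% and 95.7% after. The injured libraries were higher than the uninjured ones in both strains without overlap, although the margins were narrow (41.2% against 39.7% in C57 and 56.6% against 53.7% in MRL). As a percent of Fcer1g, Fcgr2b overlapped in C57, at 12.5% to 55.2% before injury and 39.8% to 49.2% after. In MRL it did not, at 14.2% to 43.8% and 56.2% to 74.7%. At 7 dpi the 4 MRL libraries were all above the 4 C57 libraries in the ratio to Fcgr3, with means of 77.5% ± 18.5 and 44.8% ± 4.17 (SD, n = 4). Of all genes tested, 8.05% had every injured MRL library above every injured C57 library in CPM. The ratio itself was not tested, and neither Fcgr2b nor Fcgr3 passed between the injured strains (edgeR adjusted p = 0.301 and 0.572). As a share of the 4 receptors per kilobase, Fcgr2b made up 7.44% ± 2.26 in uninjured C57, 11.3% ± 0.961 in injured C57, 8.70% ± 2.58 in uninjured MRL and 17.7% ± 3.63 in injured MRL (SD, n = 4). On that scale the C57 groups overlapped, since the lowest injured library was at 10.5% and the highest uninjured one at 10.6%, and the MRL groups did not.

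**Figure D3:**
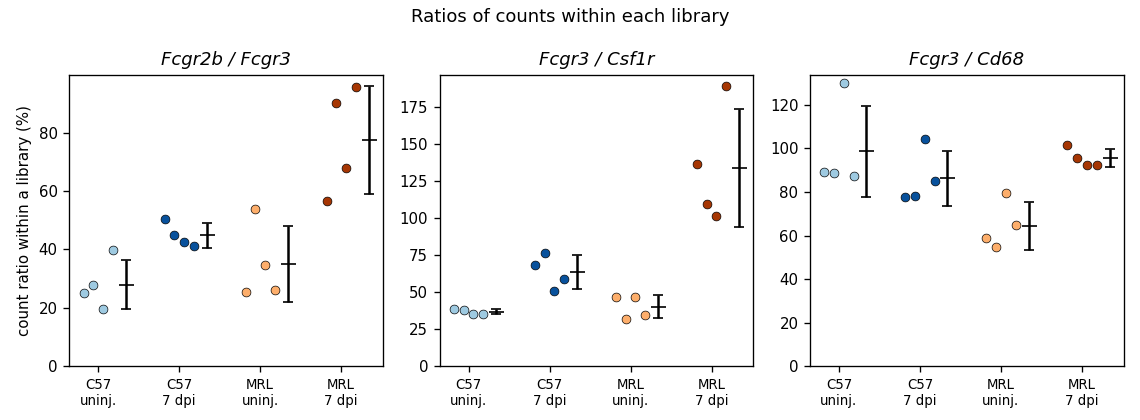
Count ratios within each library, in percent, by group, with the group mean and SD. Fcgr2b relative to Fcgr3 is 41.2% to 50.6% in injured C57 and 56.6% to 95.7% in injured MRL. Fcgr3 relative to the macrophage receptor gene Csf1r is at 101.2% or more in every injured MRL library, while Fcgr3 relative to Cd68 overlaps between the injured groups.

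Markers of macrophages and monocytes rose in part, with a median log2 difference of 1.99 in C57 and 1.12 in MRL. The summed level of 13 such genes ran from 814.8 to 1758 CPM in uninjured C57 and from 4934 to 8708 CPM at 7 dpi, and from 1003 to 1628 CPM in uninjured MRL and 3728 to 6805 CPM at 7 dpi. Of the 12 tested in each strain, 7 rose in C57, where 0.908% of all genes did, and 6 in MRL, where 5.25% did. Without C57 uninjured replicate 4, 10 of 12 rose in C57. In MRL 4 of 12 rose without BI-270 (4.28% of all genes) and 5 of 13 without MRL uninjured replicate 4 (4.68% of all genes). All 6 pan-leukocyte genes rose in MRL and 4 of 6 in C57, and all 6 rose in C57 without C57 uninjured replicate 4. Relative to the 13 macrophage and monocyte genes, the level of Fcgr3 had means of 2.64% in uninjured C57, 2.86% in injured C57, 2.36% in uninjured MRL and 3.17% in injured MRL, and the uninjured and injured ranges overlapped in each strain. Most of that sum was Lyz2, at a mean of 4788 CPM in injured C57 and 4162 CPM in injured MRL. Relative to the 6 pan-leukocyte genes, Fcgr3 was 13.7% to 16.9% in uninjured C57 and 19.5% to 26.9% in injured C57, without overlap, and 12.1% to 26.2% and 20.3% to 29.5% in MRL, with overlap. Fcgr2b relative to the macrophage and monocyte genes was 0.730% ± 0.193, 1.28% ± 0.166, 0.822% ± 0.290 and 2.41% ± 0.369 (SD, n = 4), and its injured libraries were above its uninjured libraries in each strain. How far the number of macrophages accounts for the receptor values was not tested.

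Between the strains at 7 dpi, 4 of 13 macrophage genes were called lower in MRL, against 1.88% of all genes. They were the complement genes C1qa, C1qb and C1qc and the growth factor receptor gene Csf1r. No IgG receptor was called. Fcgr3, Fcgr1 and Fcer1g differed by -0.30, -0.11 and -0.11 on the log2 scale, and Fcgr2b and Fcgr4 by 0.45 and 1.36. Whether the receptors differed less than the macrophage genes was not tested. Without BI-181, C1qa and C1qc lost their calls and Mrc1 gained one, and without BI-270, Mrc1 was called beside the other 4. Csf1r measured 338.7 ± 99.4 CPM in injured C57 and 130.7 ± 42.3 CPM in injured MRL (SD, n = 4; log2 difference -1.39 ± 0.29, SE; edgeR adjusted p = 0.0273). Fcgr3 as a percent of Csf1r was accordingly 50.7% to 76.3% in injured C57 and 101.2% to 188.8% in injured MRL, against 31.9% to 46.7% over both uninjured groups. Fcgr2b as a percent of Csf1r was 28.7% ± 6.83 in injured C57 and 106.2% ± 51.2 in injured MRL (SD, n = 4). The difference depended on the gene used as reference. Relative to the lysosomal macrophage gene Cd68, Fcgr3 was 86.2% ± 12.6 in injured C57 and 95.6% ± 4.32 in injured MRL with overlapping ranges, whereas Fcgr2b was 38.4% ± 4.38 and 73.7% ± 15.98 without overlap.

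Markers of other cell types that bear or could bear Fc receptors were measured in the same libraries. The summed level of 10 neutrophil genes was 0.778 to 142.8 CPM in uninjured C57, with the highest value in C57 replicate 3, and 3.79 to 6.79 CPM in injured C57. In MRL it was 0.0663 to 2.90 CPM before injury and 4.5 to 31.7 CPM after, so every injured MRL library was above every uninjured one. Neither of the 2 neutrophil genes tested passed the injury test in either strain, and Ly6g was at 0 in every injured library. The 10 natural killer and T cell genes summed to at most 1.17 CPM in uninjured C57 and to 2.79 to 7.88 CPM in injured C57, where Ncr1 alone was at 0 in every library. In MRL they summed to at most 1.31 CPM before and 1.41 CPM after injury. The B and plasma cell genes summed to 110.1 to 733.5 CPM in uninjured C57, 69.7 to 156.5 CPM in injured C57, 55.7 to 133.4 CPM in uninjured MRL and 79.6 to 154.9 CPM in injured MRL, nearly all of it Sdc1, a gene that epithelia also express. Ms4a1, Jchain and Mzb1 were at 0 in both injured groups, and Cd79b was called higher in C57 without C57 uninjured replicate 4. The 6 mast cell genes summed to 7.97 to 12.7 CPM in uninjured C57 and 11.03 to 290.1 CPM in injured C57. In MRL they summed to 3.25 to 65.8 CPM before and 0.210 to 61.9 CPM after injury, and none passed the injury test in either strain. The 6 dendritic cell genes ran from 11.1 to 15.1 CPM in uninjured C57, 29.3 to 44.0 CPM in injured C57, 10.3 to 15.5 CPM in uninjured MRL and 17.8 to 30.2 CPM in injured MRL, and the injured libraries were above the uninjured ones in each strain. Of these, Itgax and Cd209a rose in MRL of 3 tested, where 5.25% of all genes rose. Cd209a lost its call without BI-270 or without MRL uninjured replicate 4, and none of 4 dendritic cell genes passed in C57. The 4 platelet genes summed to 56.4 to 139.3 CPM in uninjured C57 and 315.1 to 406.2 CPM in injured C57, and to 39.7 to 95.4 CPM in uninjured MRL and 110.2 to 268.3 CPM in injured MRL. Among them only the chemokine gene Pf4 passed, of 3 tested in C57 and 2 in MRL, and Gp9 was at 0 in every MRL library. Pf4 rose by 1.79 ± 0.32 in C57 and 1.40 ± 0.34 in MRL (log2, SE; edgeR adjusted p = 0.0394 and 0.0255), the C57 call being lost without BI-181. The 6 endothelial genes, of a cell type that makes Fcgrt, summed to 17.1 to 67.3 CPM in uninjured C57 and 86.5 to 136.0 CPM in injured C57. In MRL they summed to 0.199 to 54.5 CPM before and 1.64 to 24.3 CPM after injury. None of the 5 tested passed the injury test in either strain, although Emcn and Tie1 rose in C57 without C57 uninjured replicate 4. Between the injured groups Pecam1 was lower in MRL, by a log2 difference of -3.75 ± 0.83 (SE; edgeR adjusted p = 0.0389). That call was lost without BI-181, and without BI-270 Pecam1, Emcn, Tie1 and Kdr were all called lower. The parts of these cells in the receptor values were not tested.

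Downstream of the receptors, kinases and adaptors of the activating pathway moved up in part. Of 26 genes tested among 28 listed, 2 rose in C57, among them the kinase Lyn (log2 1.63), and 6 rose in MRL, with none lower in either strain. The share of all genes that rose was 0.908% in C57 and 5.25% in MRL. The largest rises in MRL were those of the kinase Fgr (log2 3.10), the adaptor Lat2 (3.00) and the GTPase Rac2 (2.76), and the kinases Btk and Lyn were also among the 6. The list's median log2 difference was 1.39 in C57 and 1.43 in MRL, where the median of all genes tested was -0.05 and -0.03. Syk, singled out here after its values were seen because it docks on Fcer1g, differed by 1.05 ± 0.51 in C57 and 1.08 ± 0.37 in MRL (log2, SE) without passing (edgeR adjusted p = 0.369 and 0.0907). Without C57 uninjured replicate 4, 8 of 27 listed genes rose in C57, where 3.5% of all genes tested rose, a background that holds for each list count given without that library. Without BI-270, 4 of 26 rose in MRL, where 4.28% of all genes did.

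Some genes of the inhibitory arm rose in each strain. Of 13 tested, 4 rose in C57, where 0.908% of all genes did, and 5 in MRL, where 5.25% did, and none fell. The ITIM receptors Lilrb4a, Cd300a and Pirb and the adaptor Dok2 rose in C57, by 2.21, 2.21, 2.55 and 1.78 on the log2 scale. In MRL Lilrb4a (log2 3.06), Cd300a (2.83) and Dok2 (1.82) had the largest rises, followed by the phosphatase Ptpn6 (SHP-1) and Pirb. Inpp5d, which encodes the SHIP phosphatase that Fcgr2b recruits, differed by 1.81 ± 0.62 in C57 and 1.11 ± 0.65 in MRL (log2, SE) and did not pass (edgeR adjusted p = 0.217 and 0.296), though it passed in C57 without C57 uninjured replicate 4, when 6 of 13 rose. Pirb lost its C57 call without BI-181 and its MRL call without BI-270. At 7 dpi Pirb was lower in MRL than in C57, by a log2 difference of -1.64 ± 0.32 (SE; edgeR adjusted p = 0.0224), and was the only one of the 13 called between strains.

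**Figure D4:**
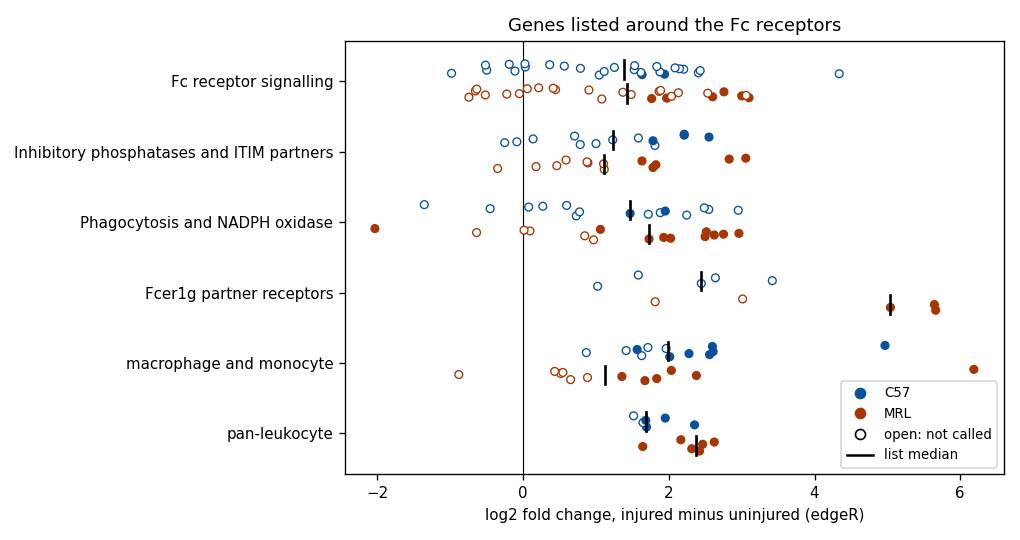
Log2 fold changes of injury for the tested genes of 6 lists, in C57 (blue) and MRL (brown); each point is a gene, filled points passed the test and the bar is the list median. The medians of all lists lie above 0, and the 3 filled points beyond 5 among the partner receptors of Fcer1g are Clec4e, Clec4n and Clec4d in MRL.

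Genes of phagocytosis and the NADPH oxidase, which act when an antibody-coated particle is taken up, rose in part. Of 15 tested, 9 rose and 1 fell in MRL, where 5.25% of all genes rose, and 2 rose in C57, where 0.908% did. The actin regulator Coro1a (log2 1.95) was among the C57 rises. The largest rises in MRL were those of Myo1g (log2 2.96), Myo1f (2.75) and Coro1a (2.62), and the actin-severing gene Gsn fell by 2.03 on the log2 scale, a call that was lost without BI-270. The count in C57 turned on 1 library, since 8 of 15 rose and Gsn fell when C57 uninjured replicate 4 was left out. None of the 15 had an interaction that passed.

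Fcer1g also serves receptors other than those for IgG, among them the IgE receptor and several C-type lectins. Of its 10 listed partners, 5 were tested in each strain. Of all genes tested, 0.908% rose in C57 and 5.25% in MRL. The C-type lectins Clec4e (Mincle), Clec4n (Dectin-2) and Clec4d rose in MRL, at 5.66 ± 0.91, 5.65 ± 0.69 and 5.04 ± 0.75 (log2, SE; edgeR adjusted p of 0.00502, 0.00170 and 0.00365). Clec4n ran from 0.361 to 3.06 CPM in uninjured MRL and from 40.2 to 169.6 CPM at 7 dpi, and from 0 to 8.04 CPM in uninjured C57 and 18.2 to 46.8 CPM at 7 dpi. None of the 5 passed in C57, where Clec4e differed by 1.02 ± 0.69, and 2 of 6 (Clec4n and Clec4d) passed without C57 uninjured replicate 4. The interaction of Clec4e was 4.56 ± 1.22 (log2, SE), which did not pass (edgeR adjusted p = 0.333). Tyrobp, the sister adaptor with an ITAM of its own, rose by 2.01 ± 0.27 in C57 and 2.58 ± 0.33 in MRL (log2, SE; edgeR adjusted p = 0.0152 and 0.00184). It was the 1 gene of 5 that passed in C57, where 0.908% of all genes rose. Tyrobp, Hcst, Clec5a and Trem2 passed in MRL of 6 tested, where 5.25% of all genes rose. Tyrobp, Clec5a and Trem2 passed in C57 without C57 uninjured replicate 4, and Hcst lost its MRL call without BI-270 or without MRL uninjured replicate 4.

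Ligands and other Fc receptors were counted as well. The IgG heavy chain genes Ighg1, Ighg2b, Ighg2c and Ighg3 had 0 counts in all 16 libraries, which allows at most 0.126 to 0.241 CPM each and concerns transcripts in the tissue and not antibody brought by blood. The IgM heavy chain gene Ighm was counted, at 20.1 to 46.3 CPM in injured C57 and 3.27 to 31.2 CPM in injured MRL. None of the 3 ligand or partner genes tested (Ighm, B2m and Ptx3) passed in either strain, but Ighm rose in C57 without C57 uninjured replicate 4. Of 11 other Fc receptors and relatives, 2 were tested in each strain, the macrophage gene Fcrls and the cytosolic IgG receptor gene Trim21, and neither passed, but without MRL uninjured replicate 4 Fcrla was called higher in MRL. Fcer1a, the IgE-binding chain that also uses Fcer1g, was at 0 in every uninjured library and reached 5.19 CPM in injured C57 and 0.635 CPM in injured MRL, with at least 1 library at 0 in each.

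Genes known to regulate these receptors were tested in the same way. Of 12 tested, Irf5 rose in C57, where 0.908% of all genes did. Csf2rb, Spi1, Irf5, C5ar1 and Tgfb1 rose in MRL, where 5.25% did. The largest of these log2 fold changes in MRL were 3.04 for Csf2rb (a receptor chain for GM-CSF), 1.91 for Spi1 (PU.1) and 1.22 for Irf5. Spi1 differed by 1.503 ± 0.323 in C57 (log2, SE; edgeR adjusted p = 0.0640). Without C57 uninjured replicate 4, 6 of 12 rose in C57, and without BI-270, 3 of 12 rose in MRL, Csf2rb and C5ar1 having lost their calls. C5ar1, the receptor for the complement fragment C5a that shifts the balance of activating and inhibitory Fc receptors, was lower in injured MRL than in injured C57, at 54.2 against 142.3 CPM (log2 difference -1.41 ± 0.23, SE; edgeR adjusted p = 0.00984). With injury it rose in MRL (log2 1.11), and in C57 it differed by 1.497 ± 0.353 (log2, SE) without passing (edgeR adjusted p = 0.0851). C5ar1 and Spi1 were both called higher in C57 when C57 uninjured replicate 4 was left out. Interferon gamma (Ifng), an inducer of Fcgr1, had 0 counts in all 16 libraries.

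The patterns of the members across the 16 libraries were compared by Pearson's r of log2 CPM, which is given as a description because the libraries share 2 strains and 1 injury. Fcgr2b and Fcgr3 had r = 0.954, Fcer1g and Fcgr3 r = 0.944, and Fcer1g and Fcgr1 r = 0.909. Fcgrt had r between -0.026 and 0.293 with the other members. Over the 8 injured libraries alone, r between Fcgr2b and Fcgr3 was 0.385 and that between Fcgr2b and Fcgrt was -0.660. Outside the family, the closest patterns were those of Ctss (r = 0.992), Lyz2 (0.987) and Cd68 (0.973) for Fcgr3, of Lyz2 (0.976), Tyrobp (0.966) and Ccl9 (0.964) for Fcgr2b, and of Alox5ap (0.979), Ms4a6d (0.966) and Ccl7 (0.961) for Fcer1g. For Fcgr1 they were Nfam1 (0.962), Rac2 (0.958) and Evi2a (0.955). Fcgrt had as its closest genes Zfp28 (0.922), Aplp2 (0.909) and Cabin1 (0.907). For Fcgr4 no gene exceeded 0.792 (Ssh1), at counts near the floor.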

How the data were processed

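The authors prepared RNA from single tendons of male C57BL/6J and MRL/MpJ mice and sequenced single-end reads of 100 nt. Per the labels and methods, reads were trimmed with Trimmomatic 0.36 and mapped with STAR 2.5.2b to GRCm38.p5. The submitters' processing notes also name Subread 1.5.0p3, featureCounts and DESeq2 1.14.1. Which annotation and strand setting served the counting is not given in the sources used here, and labels and methods describe different library kits. The deposited table holds whole-number counts for 49568 gene symbols in 16 libraries, without normalization or a filter. No molecular identifiers are named, so floors cover counting error only.

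Groups and the replicate numbers of uninjured libraries came from the labels, and injured libraries are called by their label names. Each comparison was fitted with edgeR 4.0.16 in R 4.3.3 (expression filter on the groups, TMM, robust quasi-likelihood test, Benjamini-Hochberg adjustment over all genes tested). Calls needed an adjusted p under 0.05 with a log2 fold change beyond 1 in either direction, the interaction at an adjusted p under 0.05. Standard errors were derived from the F statistic, and 95% intervals from the t distribution with the degrees of freedom of the fit. Injury was tested within each strain, strain within each state, and the interaction over 16 libraries. CPM used TMM-adjusted sizes of the 15947 genes kept over 16 libraries, and log2 CPM a prior count of 2. Within each group no library was a duplicate of another, and pairs from different groups were not checked for this.

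The members, gene lists and marker lists were chosen with earlier results of these data known. All members are named in every comparison, with the 3 genes closest to each in pattern, and from each list at most the 3 called genes with the largest change, plus any gene that a count of 5 or fewer points to. Some genes that this rule names are not reported here. Coordinates and exon lengths came from GENCODE M21 of GRCm38, and promoter sequences from RefSeq of GRCm38.p6. The tests were checked on simulated counts. Alternatives were DESeq2 1.42.0, its size factors or total counts in edgeR, a filter on at least 10 counts in at least 4 libraries or none, a non-robust fit, 1 fit over all libraries, leaving out each library, leaving out both uninjured libraries numbered 4, and the replicate block. List counts without 4 libraries that stood apart or weighed on a result were added after seeing the data. Same-numbered uninjured libraries of the strains are different animals.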

Additional observations from a re-analysis of the deposited data

Results flagged for a closer look

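Fcgr4 in the MRL injured library BI-270 measured 7.317 CPM, far from the other 3 libraries of its group, which were between 0.0454 and 0.971 CPM. Its gap to the nearest library was 0.873 of the whole range of the group, above Dixon's critical value for 4 samples. It was the only one of 24 combinations of member and group in which a library stood apart in this way, and chance alone sets a library apart in about 1 in 20 groups. The same library was also the highest of its group for Fcgr1 (22.5 CPM) and Fcgr3 (250.3 CPM), but not for Fcer1g or Fcgr2b, which were highest in BI-275.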

How the results depend on the processing

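Fcgr2b kept its call in both strains under all alternatives run, and Fcgr3, Fcer1g and Fcgr2b kept theirs in MRL. Fcgr3 in C57 lost its call when 6 of the 8 libraries were left out singly, and Fcgr1 in MRL lost its call in 1 fit over 16 libraries (edgeR adjusted p = 0.0849). No member was called in the interaction or between strains under any alternative. With DESeq2, 4 members were called in C57 in place of 2. The number of genes called moved from 155 to 907 in C57, from 1057 to 1818 in MRL, from 0 to 198 for the interaction, from 0 to 104 between uninjured strains and from 502 to 1488 between injured strains with DESeq2. In 1 fit over 16 libraries, 367 genes were called in C57 and 227 between injured strains. Between uninjured strains, 1 gene was called without a filter and 497 without both libraries numbered 4, and Fcgr3's interaction then turned to 0.13. Over the alternatives other than leaving out a single library, the interaction of Fcer1g ran from 0.21 to 0.71 without a call.

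When single libraries were left out, the genes called ranged from 10 (without C57 uninjured replicate 3) to 750 (without C57 uninjured replicate 4) in C57, from 689 (without MRL uninjured replicate 1) to 1260 in MRL, from 0 to 3 between uninjured strains and from 231 (without BI-185) to 481 between injured strains. The members called ranged from 1 to 4 in C57 and were 4 in each MRL fit. Directions that turned belonged to differences that had not passed. On the log2 scale Fcgr4 ranged from -0.41 to 2.58 in MRL injury. The interaction ranged from -0.87 to 0.12 for Fcgr1, -0.26 to 0.21 for Fcgr3, -1.89 to 1.08 for Fcgr4 and -0.069 to 0.61 for Fcer1g. The uninjured strain difference ranged from -0.21 to 0.77 for Fcgr1 and -0.10 to 0.43 for Fcgr2b, and the injured one from -0.29 to 0.13 for Fcgr1, -0.54 to 1.99 for Fcgr4 and -0.42 to 0.10 for Fcer1g. The cause of these shifts was not tested.

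With the replicate block, 0 genes and 0 members were called between uninjured strains, as without it. The numbers did not pair the libraries, since same-numbered libraries had correlations of -0.262, 0.015, -0.104 and -0.233, and injured libraries carry none. Fcgr4 was below 3 counts in 6 of 16 libraries.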
